A study of Mus musculus with 12 samples.

Results

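The neutral amino acid and cystine transporters described here are 10 genes, Slc7a5, Slc3a2, Slc7a8, Slc43a1, Slc43a2, Slc1a5, Slc7a11, Slc38a1, Slc38a2 and Slc6a14, taken by symbol from the 22630 gene rows measured by RNA sequencing in 12 mouse tumors. All 10 were present in every file, 9 had enough reads to be tested, and Slc6a14 had no read in any tumor. The tumors were subcutaneous grafts of KCip53-1, a single mouse pancreatic cancer line (whose genotype includes Ptf1a-Cre, TREp53R270H and R26rtTa/rtTa), in which doxycycline (dox) switches on a mutant p53 transgene through the reverse tetracycline transactivator. Every tumor, the no-dox controls included, therefore carried the transgene and the transactivator. The hosts were immunodeficient NSG mice, injected at 8 to 10 weeks of age with 500000 cells in 50% Matrigel. The 4 no-dox tumors had no dox, the 4 plus-dox tumors had dox for 36 days, and the 4 off-dox tumors had it for 33 days and then 3 days without (0.2 g/l in drinking water with 5% sucrose). Mice were implanted with a pair of tumors each and the pairs are not named, so the tests treat tumors as independent and their p-values are too small where tumors of a group shared a mouse.

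Cells take up large neutral amino acids such as leucine through exchangers made of a heavy chain, Slc3a2, which carries the complex to the cell surface, and 1 of several light chains that do the transport. Slc7a5 is the light chain of the leucine exchanger most often linked to growing tumors, and Slc7a11 with the same heavy chain imports cystine, the source of cysteine for glutathione, in exchange for glutamate. Slc1a5, Slc38a1 and Slc38a2 bring in glutamine, which such exchangers can trade for leucine, while Slc43a1 and Slc43a2 carry branched-chain and aromatic amino acids without exchange. The genes stand in a wider circuit, since imported leucine signals to mTORC1 and a shortage of amino acids induces several of these transporters through ATF4. The comparisons below ask whether their RNA differed with dox and after its removal.

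RNA came from whole tumors, so the values mix cancer and host cells, and in such samples a smaller number of cells and less RNA per cell cannot be told apart. The counts summed to 19845923 to 33137609 per tumor. Reads on genes made up 88.4% to 89.4% of mapped reads without dox, 82.2% to 87.1% on dox and 81.1% to 85.8% after its removal, which separates the no-dox tumors from the other 8, so no comparison with them could be repeated at a like share. Epithelial markers were present in all tumors. Their score (mean log2 CPM of 7 markers) was 6.51 in plus-dox 2, 7.73 in off-dox 3, 7.86 in off-dox 4 and 8.27 to 9.37 in the other 9, but single markers differed in order. Epcam, an epithelial adhesion protein, was lowest in plus-dox 2 (7.76 RPKM) and off-dox 4 (40.9), whereas the keratins Krt8 and Krt18 were lowest in off-dox 3 (317.7 and 391.1). Trp53 RNA overlapped between the groups, from 40.1 to 57.4 RPKM without dox, 40.4 to 56.0 on dox and 41.6 to 45.4 off dox, so these counts do not check the dox labels. Tumors are named by group and replicate number.

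Promoter sequence is shown for Slc7a11 and Slc38a2, whose motifs for the amino acid and the antioxidant response fit upstream stretches of at most 30 bases. It comes from 300-base RefSeq windows (assembly GRCm38.p6, 250 bases before the start site and 50 after) and was placed in mm9 by exact match. Windows were present for 7 of the 10 genes (8 windows), and Slc7a5, Slc1a5 and Slc38a1 had none in the table. The core of the amino acid response element bound by ATF4, TGATGNAA, was searched on both strands and lay in 3.97% of 32851 windows, and 0.07% held it more than once. Slc7a11 was the only transporter with it and held it a pair of times, once on each strand, within chr3:50247574-50247602 (mm9, minus strand, intergenic, 39 to 67 bases before the start site). The core of the antioxidant response element bound by NRF2, TGACNNNGC, lay in 12.4% of windows, and in those of Slc38a2 and Slc43a1. The stretch printed for Slc38a2 is at chr15:96530168-96530196 (mm9, minus strand). It lies 9 to 37 bases before the start site of its GRCm38 window. The mm9 gene model starts farther downstream, at 96530129. The E-box CACGTG lay in 7.15% of windows, and among the transporters in that of Slc43a1 alone. Capitals mark the motif letters in these stretches, which read 5′ to 3′ along the gene's strand.
Slc7a11: cTGATGCAAacctggagaatTTGCATCAt
Slc38a2: ccccgcccacTGACGCGGCgccccgccgc

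The levels fell into steps that were the same in nearly every tumor, on the scale of RPKM, which corrects for exonic length. Slc3a2 (40.7 ± 3.75, SD, n = 12) and Slc38a2 (40.3 ± 5.15) stood highest and their ranges overlapped, with Slc3a2 above Slc38a2 in 8 of 12 tumors. Slc1a5 (14.5 ± 3.18) and Slc7a5 (12.6 ± 3.56) followed, also with overlapping ranges. Slc43a2 (7.44 ± 0.950) exceeded Slc7a8 (5.37 ± 1.09) in all 12 tumors although the ranges overlapped across tumors, and Slc7a8 and Slc38a1 (4.67 ± 1.22) were not separated. Slc7a11 (1.05 ± 0.484) and Slc43a1 (0.880 ± 0.350) were lowest, with Slc7a11 higher in 6 of 12 tumors. The ranges of Slc38a2 and Slc1a5, of Slc7a5 and Slc43a2, and of Slc38a1 and Slc7a11 did not overlap. Slc6a14, a broad sodium- and chloride-coupled transporter (mm9 chromosome X, 21292026 to 21319483), had 0 counts in all 12 tumors, as did 3129 of 22630 gene rows (13.8%). A count of 0 allows up to 3 counts, which is 0.0236 to 0.0366 RPKM in a tumor, a limit for counting error only.

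None of the 9 tested transporters passed the limits for a change in any comparison (edgeR quasi-likelihood test, Benjamini-Hochberg adjusted p under 0.1 over 17561 genes, over 1.5-fold, mean RPKM over 0.25). The share of all genes that passed was 0% for plus-dox against no-dox, 1.34% for off-dox against no-dox and 0% for off-dox against plus-dox. DESeq2 also called 0 of the 9 in each comparison, beside 0.732%, 3.52% and 0.0343% of all genes in the same order, and limma-voom 0 of the 9 beside 0.638%, 3.65% and 0%. At an unadjusted p under 0.05 by edgeR, 0 of 9 stood out for plus-dox against no-dox, 2 of 9 for off-dox against no-dox, and 0 of 9 for off-dox against plus-dox, beside 13.7%, 20.4% and 3.06% of all genes. The groups overlapped for every tested transporter in every comparison on the log2 CPM scale, whereas they did not overlap for 8.86%, 11.5% and 1.4% of all genes. The median log2 fold change over the 9 was 0.20, 0.24 and 0.01 in the same order, beside 0.01, 0.01 and -0.00051 over all genes. Without off-dox 4 the median for off-dox against no-dox was 0.02, and without any other single tumor it was 0.21 to 0.38. With the epithelial marker score as a covariate the medians against no-dox were -0.08 for plus-dox and 0.17 for off-dox. Exact permutation tests of 4 against 4 tumors, whose smallest possible two-sided p is 0.0286, gave a smallest p of 0.0571 among 27.

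**Figure D1:**
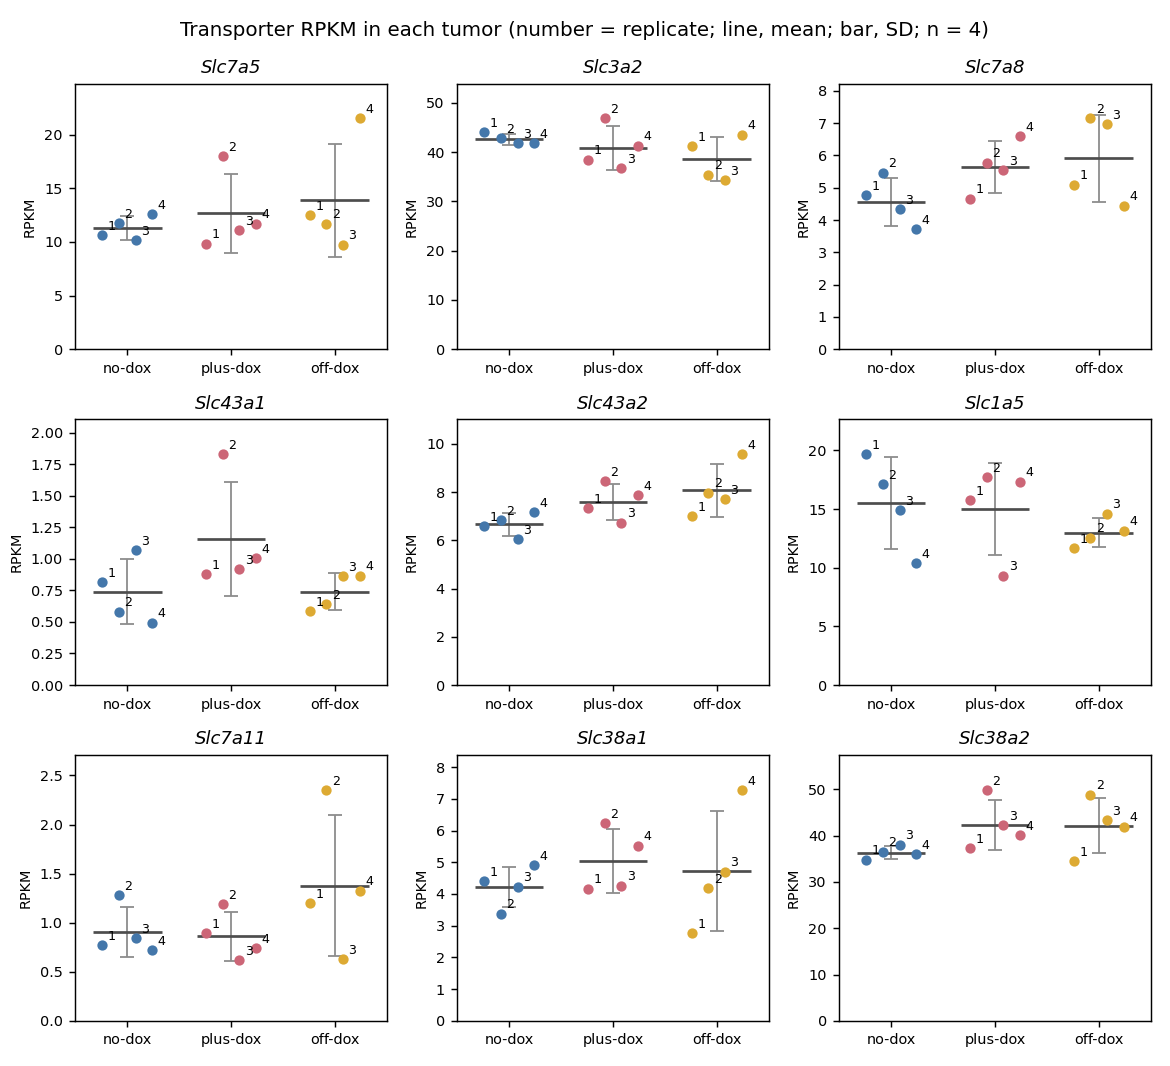
RPKM of the 9 detected transporters in each of the 12 tumors, with the mean (line) and SD (bar) of the 4 tumors of each group. Plus-dox 2 and off-dox 4 are the 2 highest tumors for Slc7a5 (18.0 and 21.5 RPKM), Slc43a2 and Slc38a1, and all groups overlap on the log2 CPM scale.

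**Figure D2:**
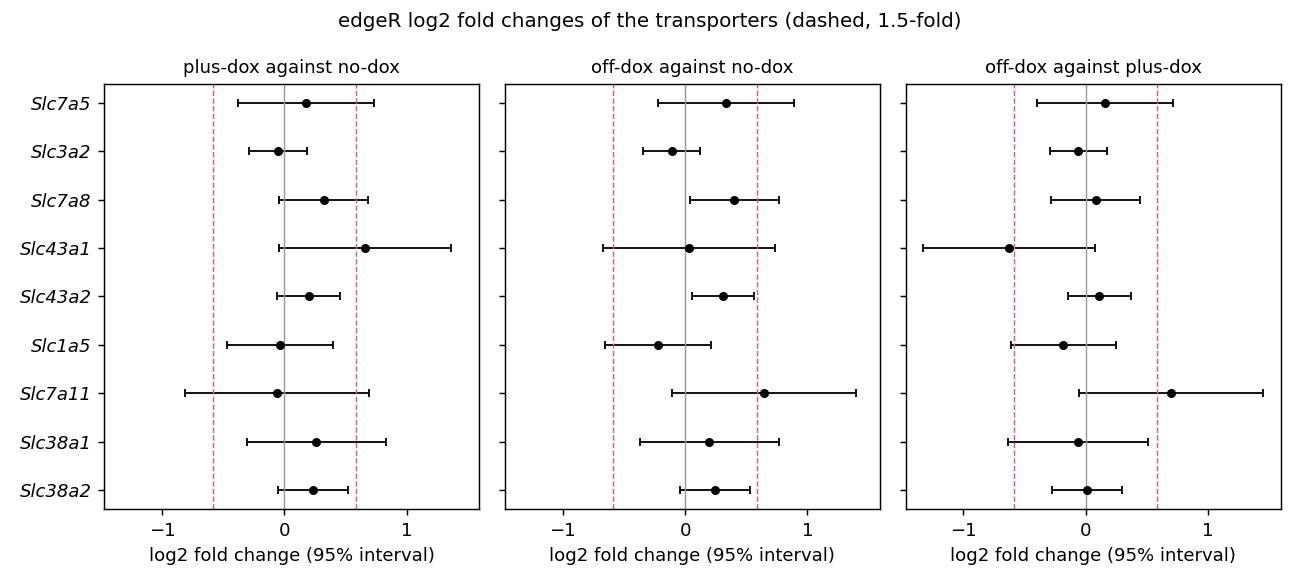
edgeR log2 fold changes with 95% intervals for the 9 detected transporters in the 3 comparisons, with dashed lines at 1.5-fold. The intervals exclude 0 only for Slc43a2 and Slc7a8 in off-dox against no-dox tumors, and those of Slc7a11 and Slc43a1 are the widest.

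Slc3a2, the shared heavy chain (mm9 chromosome 19, 8781372 to 8797859), varied least among the tumors (coefficient of variation 9.23%). Its level was 44.0, 42.8, 41.7 and 41.7 RPKM in no-dox tumors, 38.4, 46.8, 36.7 and 41.3 in plus-dox tumors, and 41.2, 35.4, 34.2 and 43.5 in off-dox tumors. The no-dox tumors lay close together, and the dox-exposed tumors spread to both sides in plus-dox and mostly below in off-dox. The log2 fold change was -0.05 ± 0.11 (SE) for plus-dox against no-dox (95% interval -0.29 to 0.19) and -0.11 ± 0.11 for off-dox against no-dox (-0.35 to 0.13), so a change of 1.5-fold in either direction lay outside both intervals. The edgeR adjusted p-values were 0.837 and 0.586.

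Slc7a5, the leucine exchanger light chain (mm9 chromosome 8, 124405046 to 124431586), differed between tumors more than between groups. It measured 10.6, 11.7, 10.2 and 12.6 RPKM in no-dox tumors, 9.83, 18.0, 11.1 and 11.7 in plus-dox tumors, and 12.5, 11.7, 9.75 and 21.5 in off-dox tumors. Only plus-dox 2 and off-dox 4 lay above the no-dox range, while off-dox 3, with the second lowest epithelial score, had the lowest RPKM of all 12. On log2 CPM plus-dox 1 was lowest (5.29, against 5.32 in off-dox 3). Its log2 fold change was 0.18 ± 0.25 for plus-dox and 0.34 ± 0.25 for off-dox against no-dox (edgeR adjusted p = 0.75 and 0.47), and the intervals, -0.38 to 0.73 and -0.22 to 0.89, hold a 1.5-fold rise. Without plus-dox 2 the first value was -0.05, and without off-dox 4 the second was 0.02. With the epithelial marker score as a covariate they were -0.11 and 0.17.

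Slc7a8, a light chain for neutral amino acids (mm9 chromosome 14, 55341052 to 55400723), had the second lowest unadjusted p of the group for off-dox against no-dox tumors. Its levels were 4.76, 5.46, 4.33 and 3.71 RPKM in no-dox tumors, 4.66, 5.78, 5.54 and 6.60 in plus-dox tumors, and 5.09, 7.15, 6.96 and 4.44 in off-dox tumors. Off-dox 2 and 3 lay above every no-dox tumor, while off-dox 1 and 4 lay within the no-dox range. By edgeR the log2 fold change was 0.40 ± 0.17 for off-dox against no-dox (95% interval 0.04 to 0.77, unadjusted p = 0.0322, adjusted p = 0.204, exact permutation p = 0.114) and 0.32 ± 0.17 for plus-dox against no-dox (-0.04 to 0.68, adjusted p = 0.411). Skeletal muscle markers also differed: their mean log2 CPM ran from 0.738 to 4.57 without dox, 4.58 to 6.44 on dox and 1.23 to 7.83 off dox. Their summed RPKM was 8.15 to 154, 114 to 373 and 8.27 to 1031 in these groups, with 0 of the 7 markers at 0 throughout a group. Off-dox 2 and 3 were the 2 tumors highest in these markers. Macrophage markers were highest in off-dox 3 (8.05 in mean log2 CPM) but not in off-dox 2 (7.73). Over the 12 tumors Slc7a8 had r = 0.80 with muscle and 0.53 with macrophage markers, and within groups 0.74 and 0.73. The part of either list in the result was not tested.

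Slc7a11, the cystine importer light chain (mm9 chromosome 3, 50168858 to 50247535), was expressed at a low level. It was 0.773, 1.28, 0.843 and 0.720 RPKM in no-dox tumors, 0.890, 1.19, 0.619 and 0.742 in plus-dox tumors, and 1.20, 2.35, 0.628 and 1.32 in off-dox tumors. Off-dox 2 alone lay clearly above the other tumors, and off-dox 3 was near the bottom of all 12. Fold changes on the log2 scale were -0.06 ± 0.35 for plus-dox against no-dox (95% interval -0.81 to 0.70) and 0.64 ± 0.35 for off-dox against no-dox (-0.11 to 1.39, edgeR adjusted p = 0.311), an interval that reaches a 2.63-fold rise. Without off-dox 2 the second value was 0.26. The promoter stretch printed above holds its paired ATF4 core motifs. The 14 genes of the amino acid response list, most of them ATF4 targets, had 0 called genes in each comparison and, at an unadjusted p under 0.05 by edgeR, 1 of 14 for plus-dox and 0 of 14 for off-dox against no-dox, beside 13.7% and 20.4% of all genes. The 1 gene was Atf5, a transcription factor of this response, with log2 fold changes of 0.30 ± 0.13 and 0.25 ± 0.13 (adjusted p = 0.35 and 0.28). Mthfd2, an enzyme of mitochondrial folate metabolism, had 0.27 ± 0.25 and 0.45 ± 0.25 (edgeR adjusted p = 0.625 and 0.33).

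The glutamine carriers were led by Slc38a2 (mm9 chromosome 15, 96517823 to 96530129), a sodium-coupled carrier known to be induced when amino acids run short. It measured 34.8, 36.5, 38.0 and 36.0 RPKM in no-dox tumors, 37.2, 49.9, 42.3 and 40.1 in plus-dox tumors, and 34.5, 48.9, 43.4 and 41.9 in off-dox tumors. On this scale all but plus-dox 1 and off-dox 1 lay above every no-dox tumor, whereas on log2 CPM plus-dox 4 (7.71) also lay below no-dox 3 (7.72). Log2 fold changes were 0.23 ± 0.13 and 0.24 ± 0.13 against no-dox (95% intervals -0.05 to 0.52 and -0.04 to 0.53, edgeR adjusted p = 0.434 and 0.313). These 2 comparisons share the no-dox tumors.

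Slc38a1 (mm9 chromosome 15, 96401849 to 96473344), the neighbour of Slc38a2 and a sodium-coupled glutamine carrier, measured 4.40, 3.37, 4.23 and 4.91 RPKM in no-dox tumors, 4.16, 6.24, 4.26 and 5.53 in plus-dox tumors, and 2.76, 4.18, 4.71 and 7.28 in off-dox tumors. Off-dox tumors spread over the whole range seen in the series. Against no-dox tumors, the log2 fold change was 0.26 ± 0.26 for plus-dox and 0.20 ± 0.26 for off-dox tumors (edgeR adjusted p = 0.642 and 0.694). Without off-dox 4 the second value was -0.11, and with the epithelial covariate the values were -0.08 and -0.05.

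Slc1a5, the sodium-coupled exchanger for glutamine and other small neutral amino acids (mm9 chromosome 7, 17366695 to 17383623), spread widely in the no-dox group (coefficient of variation 25.5%). It measured 19.7, 17.1, 14.9 and 10.4 RPKM in no-dox tumors, 15.7, 17.7, 9.31 and 17.3 in plus-dox tumors, and 11.6, 12.6, 14.6 and 13.1 in off-dox tumors. The off-dox tumors lay inside the no-dox range. The log2 fold change was -0.04 ± 0.20 for plus-dox and -0.22 ± 0.20 for off-dox against no-dox (95% intervals -0.47 to 0.39 and -0.65 to 0.21, edgeR adjusted p = 0.942 and 0.55). With single tumors left out the second value ranged from -0.36, without no-dox 4, to -0.10, without no-dox 1.

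Of the carriers that work without a heavy chain, Slc43a2 (mm9 chromosome 11, 75345196 to 75391074) had the lowest unadjusted p of the 9 for off-dox against no-dox tumors. It measured 6.59, 6.83, 6.05 and 7.17 RPKM in no-dox tumors, 7.33, 8.45, 6.72 and 7.87 in plus-dox tumors, and 7.01, 7.98, 7.71 and 9.58 in off-dox tumors. Off-dox 1 alone lay within the no-dox range. The log2 fold change was 0.31 ± 0.12 (95% interval 0.06 to 0.56, edgeR p = 0.0211, adjusted p = 0.175, exact permutation p = 0.0571) and 0.20 ± 0.12 for plus-dox against no-dox (adjusted p = 0.45). The upper end of the first interval is a 1.48-fold rise, under the 1.5-fold limit.

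Slc43a1, the other member of that pair (mm9 chromosome 2, 84679565 to 84703743), measured 0.814, 0.582, 1.07 and 0.493 RPKM in no-dox tumors, 0.880, 1.83, 0.921 and 1.01 in plus-dox tumors, and 0.586, 0.642, 0.864 and 0.868 in off-dox tumors. Its counts were 42.1 to 175.4 per tumor. Plus-dox 2 stood apart from the other tumors. The log2 fold change was 0.66 ± 0.32 for plus-dox against no-dox (95% interval -0.04 to 1.36, edgeR adjusted p = 0.386), 0.03 ± 0.32 for off-dox against no-dox (adjusted p = 0.965) and -0.63 ± 0.32 for off-dox against plus-dox (adjusted p = 1). Without plus-dox 2 the first value was 0.35, and with the epithelial covariate it was 0.16. Off-dox and plus-dox tumors overlapped on log2 CPM (exact permutation p = 0.0857). On log2(RPKM + 0.25) they did not overlap (exact permutation p = 0.0286), with the lowest plus-dox tumor at 0.880 and the highest off-dox tumor at 0.868 RPKM.

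For the heavy chain and its partners, Slc3a2 was set beside the summed RPKM of 6 light chains, Slc7a5, Slc7a6, Slc7a7, Slc7a8, Slc7a10 and Slc7a11, a description added after the data were seen. The sum was 57.4 ± 1.98 RPKM (SD, n = 4) without dox, 57.6 ± 9.85 on dox and 57.1 ± 12.1 off dox, above Slc3a2 in all 12. Slc3a2 was 0.742 ± 0.0242 of it without dox, 0.714 ± 0.0444 on dox and 0.689 ± 0.106 off dox. Slc7a6 and Slc7a7, which exchange cationic for neutral amino acids, made up 33.5% ± 5.34 and 32.4% ± 6.59 of the light chain RPKM over the 12 tumors, Slc7a5 21.7% ± 3.39, Slc7a8 9.59% ± 2.62 and Slc7a11 1.81% ± 0.791. In plus-dox 2 and off-dox 4 the sum was 71.3 and 73.7 RPKM, the highest of all, with 25.3% and 29.2% from Slc7a5 and the 2 smallest Slc7a7 shares, 23.2% and 18.9%. The ratio of Slc3a2 to the sum was 0.657 and 0.590 there, and only off-dox 2 (0.613) was as low.

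**Figure D3:**
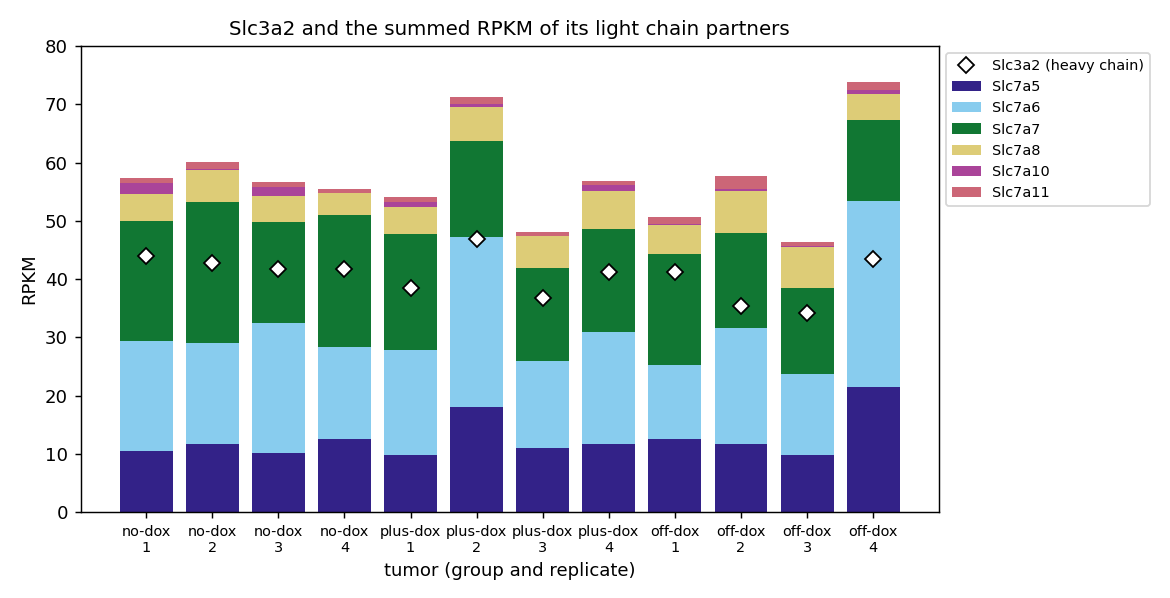
Stacked RPKM of the 6 light chain partners in each tumor, with Slc3a2 as open diamonds. The stack is tallest in plus-dox 2 (71.3 RPKM) and off-dox 4 (73.7), where Slc7a5 and Slc7a6 take more of it, and Slc3a2 stays between 34.2 and 46.8 RPKM.

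The RNA of subunits and neighbours was compared across the 12 tumors in 4 pairs fixed for this purpose. Slc3a2 and Slc7a5 had Pearson r = 0.69 (permutation p = 0.0114, adjusted 0.0456 over the 4 pairs) and Spearman rho = 0.55 (p = 0.0653, adjusted 0.087). Without off-dox 2 and 3, the tumors farthest from the Slc3a2 median, r was 0.77, and after subtracting group means it was 0.91. On log2(RPKM + 0.25) r was 0.57 and the pair no longer passed 0.05 after adjustment. Leaving out single tumors gave an r of 0.59 to 0.75 on log2 CPM. Slc3a2 and Slc7a8 had r = -0.55 (permutation p = 0.0643, adjusted 0.0857) and rho = -0.56 (p = 0.0624, adjusted 0.087), and r was -0.10 without off-dox 2 and 3, so that relation rests on these tumors. Slc3a2 and Slc7a11 had r = 0.10 (permutation p = 0.749, adjusted 0.749) and rho = 0.36 (p = 0.249, adjusted 0.249). Slc38a1 and Slc38a2 had r = 0.58 (permutation p = 0.0465, adjusted 0.0857) and rho = 0.58 (p = 0.0526, adjusted 0.087), and r was 0.51 without off-dox 1 and 4.

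The transporters were then set beside 8 lists of cell type markers (mean log2 CPM of each list, 72 relations). After adjustment over the 72, 5 relations passed 0.05 for Pearson's r and 0 passed for Spearman's rho, whose lowest adjusted p was 0.0742. Slc43a1 gave 3 of them, with endothelial markers (r = 0.90, permutation p = 1e-04, adjusted 0.0036, rho = 0.84, p = 0.00103), fibroblast markers (r = 0.90, p = 7e-05, adjusted 0.0036, rho = 0.80, p = 0.00292) and epithelial markers (r = -0.83, p = 0.00157, adjusted 0.0251, rho = -0.67, p = 0.0204). Without the 2 tumors farthest from each list's median these were 0.83, 0.79 and -0.67, and within groups 0.86, 0.86 and -0.83. Slc7a8 followed skeletal muscle markers (r = 0.80, permutation p = 0.00146, adjusted 0.0251, rho = 0.70, p = 0.0143, 0.73 without no-dox 4 and off-dox 4). Slc1a5 followed adipocyte markers (r = 0.81, permutation p = 0.00174, adjusted 0.0251, rho = 0.74, p = 0.00808), with r = 0.58 without no-dox 4 and plus-dox 3. All 72 relations use the same 12 libraries, which differ in depth and cell content, and what the relations stand for was not tested.

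**Figure D4:**
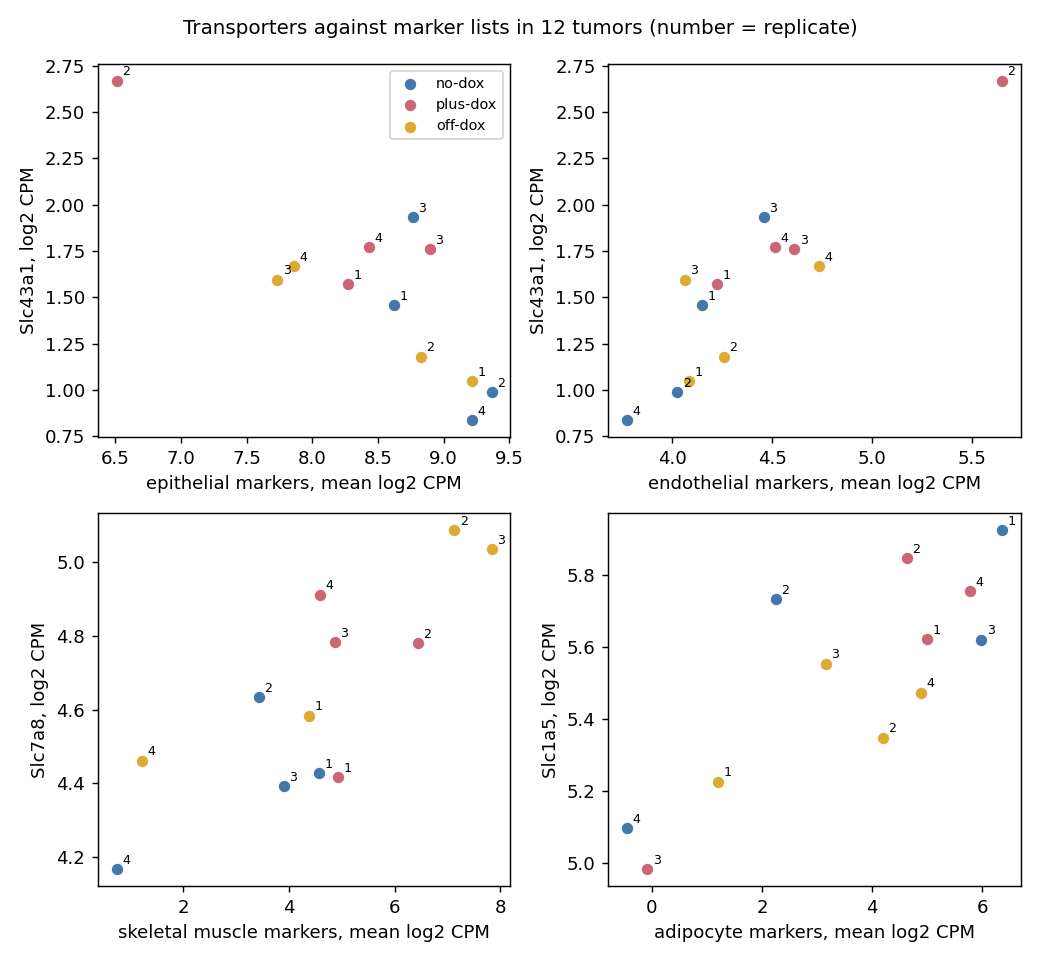
log2 CPM of Slc43a1, Slc7a8 and Slc1a5 against the mean log2 CPM of marker lists in the 12 tumors, coloured by group and numbered by replicate. Plus-dox 2 lies at the end of both Slc43a1 panels, and Slc1a5 is lowest in plus-dox 3 and no-dox 4, the tumors with the least adipocyte marker RNA.

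A slope on the epithelial marker score within groups, added after the data were seen, was fitted for all 17561 genes with edgeR. It was negative at an adjusted p under 0.1 for 6.85% of genes and positive for 9.99%, and for 1 of the 9 transporters, Slc43a1 (-0.48 ± 0.14 per log2 unit of score, adjusted p = 0.0438). The slope was -0.35 ± 0.13 for Slc38a1 (adjusted p = 0.113), -0.24 ± 0.10 for Slc1a5 (adjusted p = 0.156) and -0.26 ± 0.13 for Slc7a5 (adjusted p = 0.242). That of Slc7a5 depended on single tumors, with -0.10 without plus-dox 2, -0.35 without off-dox 3 (edgeR adjusted p = 0.0421) and 0.27 without plus-dox 2 and off-dox 4. Slc38a1 passed 0.1 without no-dox 4 (edgeR adjusted p = 0.0938) and without off-dox 3 (0.0757). Of all genes, 2589 of 17469 passed 0.1 without no-dox 4 and 4348 of 17452 without off-dox 3, so passing in these refits is not particular to the transporters. Without plus-dox 2 the slope of Slc43a1 was -0.49 ± 0.23 (adjusted p = 0.38) and the number of genes under 0.1 was 203, so the call rests on this tumor.

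Other genes of amino acid supply were read from lists of the same circuit. Of 27 tested further amino acid transporters, 1 passed the limits for off-dox against no-dox and 0 for the other comparisons (the first beside 1.34% of all genes). That gene was Slc7a2, a carrier of arginine and other cationic amino acids, at 2.73, 2.56, 1.87 and 2.29 RPKM in no-dox tumors, 2.11, 2.78, 3.91 and 3.02 in plus-dox tumors, and 3.09, 4.94, 3.29 and 5.09 in off-dox tumors. It rose in off-dox tumors by 0.83 ± 0.23 on the log2 scale (edgeR adjusted p = 0.098). All of them exceeded all no-dox tumors in RPKM, beside 11.5% of all genes whose groups did not overlap on log2 CPM. Slc7a2 passed the limits in 8 of 23 alternatives, with adjusted p-values of 0.0168 to 0.238 and log2 fold changes of 0.68 to 0.96. It lost the call without any single no-dox tumor, plus-dox 3 or 4, or off-dox 2, 3 or 4. Slc38a9, a lysosomal arginine sensor, had a log2 fold change of 0.47 ± 0.13 (adjusted p = 0.102).

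The list of branched-chain amino acid catabolism, the path that burns leucine, isoleucine and valine, holds enzymes and also the inhibitory kinase Bckdk. It had 5 of 8 genes lower at an unadjusted p under 0.05 by edgeR in plus-dox and 5 of 8 in off-dox tumors against no-dox. This stood beside 5.67% and 9.48% of all genes, and 0 passed the limits. The study had reported lower branched-chain amino acid metabolism on mutant p53 expression from these same tumors, so these counts are not an independent check of it. The 2 comparisons share the no-dox tumors. The median log2 fold changes were -0.30 and -0.36. Bckdha, a subunit of the branched-chain keto acid dehydrogenase, was 36.2 to 39.6 RPKM without dox, 22.7 to 32.3 on dox and 19.4 to 31.1 off dox (log2 fold changes -0.52 ± 0.14 and -0.58 ± 0.14, edgeR adjusted p = 0.322 and 0.0875). Bckdk, the kinase that inhibits that enzyme, was 25.8 to 29.6, 19.5 to 24.2 and 17.3 to 22.8 RPKM (-0.27 ± 0.09 and -0.40 ± 0.09, adjusted p = 0.326 and 0.0835). In both genes every no-dox tumor lay above all 8 others in RPKM, and the differences fitted by edgeR stayed under 1.5-fold. Of all genes, 8.86% did not overlap between plus-dox and no-dox tumors and 11.5% between off-dox and no-dox, on log2 CPM. The share for no-dox against all 8 others was not computed. The no-dox tumors also had the highest share of reads on genes and the highest epithelial scores on average (8.99 against 8.03 and 8.41). Among the epithelial markers Krt8 alone separated them (829.6 to 972.5 RPKM, against 317.7 to 809.6 in the 8 others). The T and NK cell marker score separated them too, with a mean log2 CPM of -2.50 to -1.62 without dox against -1.11 to -0.37 on dox and -1.51 to -0.62 off dox. The summed RPKM was 0.5995 to 1.30, 2.38 to 3.34 and 1.46 to 3.62. Of the single T and NK markers only Nkg7 did so (0.123 to 0.385 RPKM without dox, 0.501 to 1.11 in the 8 others), while Cd3e, Cd3g, Cd2 and Ncr1 overlapped. Neutrophil markers averaged 1.90 without dox (1.67 to 2.11), 2.41 on dox (2.17 to 2.71) and 2.33 off dox (1.75 to 2.68). The no-dox scores thus overlapped those of off-dox tumors but not of plus-dox tumors. Of single neutrophil markers, Csf3r (3.50 to 4.47 RPKM without dox, 4.55 to 9.02 in the 8 others) and Cxcr2 (1.22 to 1.48 against 1.78 to 3.44) separated the no-dox tumors. S100a8, S100a9 and Retnlg did not. In both lists 0 of the 5 markers were at 0 throughout a group, but the T and NK markers were low in these immunodeficient hosts. Cd3e was 0 to 0.149 RPKM, with 0 in no-dox 3, no-dox 4, plus-dox 4 and off-dox 1. No marker of that list exceeded 2.05 RPKM (Ncr1 in off-dox 4). Which cells these reads came from and the part of these differences in the result were not tested.

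The glutamine and asparagine enzymes (8 tested) had 2 genes lower and 0 higher at an unadjusted p under 0.05 by edgeR in each comparison with no-dox, beside 5.67% (plus-dox) and 9.48% (off-dox) of all genes lower, and 0 past the limits. Glud1, glutamate dehydrogenase, had a log2 fold change of -0.29 ± 0.09 and Gpt2, a mitochondrial alanine aminotransferase, of -0.45 ± 0.15 in off-dox tumors (adjusted p = 0.111 and 0.148). The 12 glutathione and NRF2 genes had 1 higher and 0 lower in each comparison with no-dox, beside 8% and 10.9% of all genes higher. In off-dox tumors that gene was Chac1, which degrades glutathione (0.64 ± 0.29, adjusted p = 0.23). Gclm, a subunit of the enzyme that starts glutathione synthesis, had the next lowest p but did not reach an unadjusted p under 0.05 by edgeR. It was 25.6, 25.3, 19.7 and 25.8 RPKM in no-dox and 23.3, 19.7, 16.8 and 18.9 in off-dox tumors. Of the 12 leucine sensing and mTORC1 genes, 4 were higher and 1 lower at an unadjusted p under 0.05 in off-dox against no-dox tumors, beside 10.9% and 9.48% of all genes, and 0 passed the limits. Tsc1 and Tsc2, which form the complex that restrains mTORC1, had log2 fold changes of 0.37 ± 0.09 and 0.34 ± 0.10 (edgeR adjusted p = 0.0897 and 0.112), both under 1.5-fold.

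**Figure D5:**
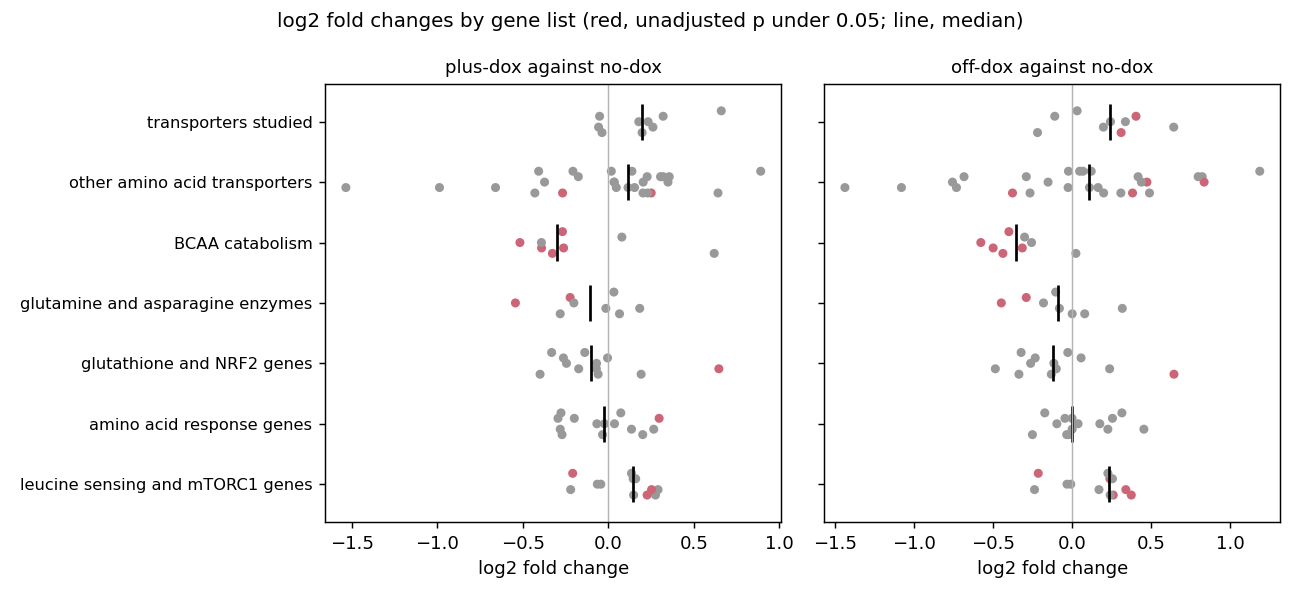
edgeR log2 fold changes of the transporters and of 6 further lists against no-dox tumors, with the median of each list as a line and genes at an unadjusted p under 0.05 in red. The median is 0.24 for the transporters and -0.36 for branched-chain amino acid (BCAA) catabolism in off-dox tumors. For the transporters it was 0.02 when off-dox 4 was left out.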

How the data were processed

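RNA of 12 tumors was sequenced as polyA+, non strand specific libraries. Per the labels and the study's methods, the authors mapped single-end reads to mm9 with TopHat 1.4.1 and counted coverage of exons that belong to 1 RefSeq gene model alone. The authors deposited expected counts, estimated counts from coverage that are not all whole numbers, and RPKM, normalized by exonic length and mapped reads. The count total per tumor sets the precision given in the report.

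Counts were rounded and fitted with edgeR 4.0.16 (TMM, at least 10 counts summed over tumors, 1 quasi-likelihood fit of the 3 groups). The limits were those of the study, with a length over 250 bp besides. Log2 CPM used a prior count of 2. Log2 fold changes are positive where the group named first is higher. SE is the fold change over the root of the F statistic. Permutation tests of correlations drew 100000 orders. DESeq2 1.42.0 and limma-voom were alternatives. The fits were tested on simulated data. The transporters and lists were chosen with earlier results of these data known. Named are all transporters, called genes of the other lists, the 2 genes of each list with the lowest unadjusted p in off-dox against no-dox tumors, and the 3 genes most like each transporter. Deviations from group means had a mean correlation of -0.09 between same-numbered tumors of different groups (12 pairs, -0.45 to 0.57). Other pairs of tumors from different groups had 0.04 (36 pairs). This spread does not settle whether equal numbers mark pairs. Tumors of the same group were not compared, so it cannot show which of them shared a mouse. Reads from overlapping antisense genes cannot be told apart. Part of the genotype of the line is not reported here.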

Additional observations from a re-analysis of the deposited data

Results flagged for a closer look

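Slc43a1 in plus-dox tumor 2 was 1.83 RPKM, against 0.880 to 1.01 in the other plus-dox tumors, a gap that takes up more of the group's range than Dixon's 95% critical value for 4 samples allows. It was the only flag among 27 groups of 4 values, and chance flags about 1 group in 20. The same tumor had the lowest Epcam, 7.76 RPKM, and the highest endothelial marker score, 5.65 in mean log2 CPM, and their part in the Slc43a1 value was not tested.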

How the results depend on the processing

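No alternative called a transporter. The 27 fold changes of the 9 transporters kept their direction in 589 of 621 values from the alternatives. The alternative with an adjusted p under 0.05 is the main fit with another limit, so its values could not turn. Some of the single tumors left out belong to neither group compared. Slc43a2 reached an adjusted p of 0.0897 in 1 alternative for off-dox against no-dox, under 1.5-fold. With the epithelial marker score as covariate the direction turned, uncalled, for Slc7a5 (-0.11) and Slc38a1 (-0.081) in plus-dox against no-dox, for Slc43a1 (-0.25) and Slc38a1 (-0.051) in off-dox against no-dox, and for Slc38a1 (0.030) in off-dox against plus-dox. Without plus-dox 2 and off-dox 4 together, an alternative added after the data were seen, it turned for Slc7a5 in the first (-0.050), and for Slc43a1 (-0.070) and Slc38a1 (-0.11) in the second. The causes were not tested. With tumors left out, the turned values ranged for plus-dox against no-dox from -0.050 to 0.29 (Slc7a5), -0.18 to 0.12 (Slc1a5) and -0.27 to 0.14 (Slc7a11). For off-dox against no-dox they ranged from -0.11 to 0.29 (Slc43a1) and -0.11 to 0.39 (Slc38a1), and for off-dox against plus-dox from -0.16 to 0.38 (Slc7a5), -0.14 to 0.020 (Slc3a2), -0.019 to 0.21 (Slc7a8), -0.0010 to 0.18 (Slc43a2), -0.38 to 0.13 (Slc38a1) and -0.065 to 0.10 (Slc38a2). The r of Slc3a2 and Slc7a11 ranged from -0.12 to 0.65.

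Genes called among all genes were 128, 615 and 6 by DESeq2, 90, 396 and 4 with moderated fold changes, and 112, 641 and 0 by limma-voom, in the order plus-dox against no-dox, off-dox against no-dox and off-dox against plus-dox, beside 0, 235 and 0 in edgeR. For off-dox against no-dox edgeR called 122 without a filter, 365 with 10 counts in every tumor, 3 in the 8 tumors alone, 0 at an adjusted p under 0.05, 0 with the replicate block, where the other comparisons also had 0 and no transporter was called, and 471 without plus-dox 2 and off-dox 4. With single tumors left out the ranges were 0 to 3, 0 to 789 (highest without off-dox 1) and 0 to 1. Exact tests under 0.05 numbered 1 with log2(RPKM + 0.25) and 0 to 2 without single tumors. Pairs passing 0.05 numbered 0 with log2(RPKM + 0.25) and 0 to 3 without single tumors.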

Other observations

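Among 12694 genes with a mean RPKM over 1, the 3 most like each transporter over the 12 tumors, by Pearson's r of log2 CPM, were found as a description of shared pattern. For Slc7a5 they were Sept9 (0.97), Rcan3 (0.97) and Camk2d (0.96), and for Slc3a2 they were Atp6v1b2, a subunit of the vacuolar proton pump (0.94), Sh3bgrl3 (0.94) and Surf4 (0.93). For Slc7a8 they were Itgam (0.95), Crybg3 (0.95) and C3ar1 (0.94), of which Itgam and C3ar1 are genes of macrophages and other myeloid cells. Slc43a1 was closest to Cthrc1 (0.97), a gene of activated fibroblasts, Egfl7 (0.95), an endothelial gene, and Maoa (0.95). Slc43a2 was closest to Ndst1 (0.96), Micall1 (0.95) and Flna (0.95).

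Slc1a5 was closest to Cdc25c, a cell cycle phosphatase (0.94), Nup85 (0.93) and Cd209a (0.92). Slc38a1 was closest to Cdh2, the N-cadherin gene (0.93), Anxa6 (0.92) and Zbtb38 (0.92), and Slc38a2 to Ccrn4l (0.94), Usp31 (0.94) and Sh3glb1 (0.94). Slc7a11 had no gene over 0.87, with Vcpip1 at 0.86, Chml at 0.84 and Akap10 at 0.84. With 12 tumors and this many genes, high values arise readily, and all of them use the same 12 libraries, which differ in depth and cell content.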
